A study of Mus musculus with 12 samples.

Results

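The genes described here encode a Wnt ligand, 4 Frizzled receptors and 3 proteins that are components of the destruction complex or its substrate, beta-catenin. Their transcripts were measured in mouse ileum after treatment with tankyrase inhibitors. The genes were taken by name: Wnt5a, Fzd1, Fzd4, Fzd7, Fzd8, Apc, Gsk3b and Ctnnb1. All 8 had a row in the deposited table, out of 780 genes in all, and all 8 lay above the background of the negative control probes in 12 of 12 libraries. The rule that selects them uses names and no measured value, but the genes were chosen with earlier results of these data known.

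Total RNA from ileum was hybridised to the Mouse Tumor Signaling 360 panel of the nCounter platform, in which colour-coded probes bind each transcript and are counted without amplification. Each of the 4 groups held 3 mice, drawn at random from 8. One group received G007-LK at 30 mg/kg by injection into the peritoneum 2 times a day, and 2 groups received oral STP1002 once a day, at a dose of 10 mg/kg in one and 5 mg/kg in the other. DMSO was given orally once a day to the control mice, and all groups were treated for 28 days. No group was injected with vehicle, so the compound, its dose, its route and its schedule change together between G007-LK and the other groups. Strain, sex, age and genotype were not in the labels used here.

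Wnt proteins bind Frizzled receptors together with an LRP co-receptor. In the absence of a Wnt signal, a complex built on axin and the scaffold protein Apc lets the kinase Gsk3b phosphorylate beta-catenin, the product of Ctnnb1, which is then degraded. When the complex is held back, beta-catenin enters the nucleus and acts with TCF/LEF factors, and in the intestinal crypt this drives stem cell renewal. Tankyrases mark axin for degradation, and their inhibitors act on the axin protein. The panel measures RNA and gives no protein levels, and axin and tankyrase transcripts were not analysed here.

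The RefSeq promoter table of mouse build GRCm38.p6 held 5 of the 8 genes. Windows of 300 bases, from 250 before to 50 after the start of the gene, are shown for the 3 Frizzled genes among them, to set members of the same receptor family side by side. Capitals mark matches on either strand to a GC box (GGGCGG), to a TATA motif (TATAAA) or to a TCF/LEF motif (ATCAAAG), and neighbouring GC boxes can overlap. The windows lie at chr5:4758167-4758466 on the minus strand for Fzd1, chr7:89404116-89404415 on the plus strand for Fzd4 and chr1:59481897-59482196 on the plus strand for Fzd7.
Fzd1: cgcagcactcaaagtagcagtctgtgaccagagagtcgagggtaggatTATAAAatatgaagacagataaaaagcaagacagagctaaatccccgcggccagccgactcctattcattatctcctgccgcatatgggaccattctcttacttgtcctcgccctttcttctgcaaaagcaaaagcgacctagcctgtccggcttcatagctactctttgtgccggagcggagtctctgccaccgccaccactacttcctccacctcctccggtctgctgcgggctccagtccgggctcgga
Fzd4: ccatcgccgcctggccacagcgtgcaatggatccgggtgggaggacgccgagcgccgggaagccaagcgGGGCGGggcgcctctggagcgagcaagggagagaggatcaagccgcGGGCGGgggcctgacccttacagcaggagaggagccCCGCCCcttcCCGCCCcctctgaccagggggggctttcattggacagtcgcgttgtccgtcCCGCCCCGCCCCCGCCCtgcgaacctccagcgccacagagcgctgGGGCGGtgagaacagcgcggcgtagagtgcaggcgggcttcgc
Fzd7: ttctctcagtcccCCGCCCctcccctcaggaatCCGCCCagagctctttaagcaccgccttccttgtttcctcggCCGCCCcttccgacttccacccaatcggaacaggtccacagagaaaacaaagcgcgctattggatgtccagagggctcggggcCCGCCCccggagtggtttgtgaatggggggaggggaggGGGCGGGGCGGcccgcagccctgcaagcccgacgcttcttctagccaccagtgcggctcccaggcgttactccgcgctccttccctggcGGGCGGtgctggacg

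The letters of the GC box occurred 8 times in the window of Fzd4 and 7 times in that of Fzd7, and 0 times in that of Fzd1. Fzd1 held 1 TATA match. The window of Gsk3b, not shown, held 0 GC boxes and 1 TATA match. Ctnnb1 has 2 windows, each with 3 GC boxes, and 1 of them held a TATA match. Over all 32851 promoter windows of the table, 35.7% held the GC box and 13.6% the TATA motif. The TCF/LEF letters were found in 0 of these 5 genes' windows, against 3.7% of all windows. A match or its absence describes the letters only.

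Summed gene counts, recovered from the steps between the deposited values, ran from 31901 to 508829 per library. The deepest libraries were G007-LK replicate 1 and control replicate 1 (293538 counts). Both stand apart, with a median gene signal of 41.9 and 40.5 on the deposited scale, against 65.6 to 203 in the other 10 libraries. The 203 belongs to STP1002 10 mg/kg replicate 2. The deposited scale therefore carries shifts of the whole panel between libraries, and for the comparisons with control values after median-ratio rescaling, which sets the typical gene equal over the libraries, are given beside many of the results. The 6 measured epithelial markers of 23 listed (Epcam, Cdh1, Sfn, Spint1, Spint2 and Erbb3) were above background in every library and none was at 0. The summed signal of the 6 was 477 to 1717 after G007-LK, 3737 to 7440.2 with STP1002 at 10 mg/kg, 2199 to 15219.6 at 5 mg/kg and 4209 to 10508 in control mice. These sums rest mainly on Sfn, Spint2 and Erbb3, with control means of 3705, 1872 and 1225, against 166 for Epcam, 151 for Cdh1 and 121 for Spint1. In bulk tissue, fewer cells of a type and less RNA per cell cannot be told apart.

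Wnt5a encodes a ligand known mainly for signalling without beta-catenin, and in the gut it is made largely by stromal cells. Its normalized signal was 10.6, 74.1 and 69.0 in the 3 G007-LK mice, 60.3, 219 and 152 with STP1002 at 10 mg/kg, 46.2, 93.4 and 55.8 at 5 mg/kg, and 27.3, 97.0 and 78.3 in control mice. The lowest values belong to the 2 deepest libraries, both below the range of the other 10 libraries (46.2 to 219), and every pair of groups overlapped. The mean was 51.2 ± 35.3 after G007-LK, 144 ± 79.5 and 65.1 ± 24.9 with STP1002 at 10 and 5 mg/kg, and 67.5 ± 36.1 in control mice (SD, n = 3 each).

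Wnt5a rested on few counts. G007-LK replicate 1 held 35 counts of Wnt5a, against 114 in STP1002 10 mg/kg replicate 2, a library of 96703 counts in all. In the shallow STP1002 5 mg/kg replicate 3 the signal of 55.8 stood for 15 counts, with an exact Poisson 95% interval of 31.2 to 92.0 that covers counting error only. The log2 fold change against control was -0.62 ± 0.80 (SE) with G007-LK, 1.08 ± 0.80 with STP1002 at 10 mg/kg and 0.07 ± 0.80 at 5 mg/kg. None passed the test, with limma adjusted p values of 0.827, 0.464 and 0.998. Median-ratio rescaling gave -0.59 ± 0.54, 0.39 ± 0.54 and -0.06 ± 0.54, so the value at 10 mg/kg was well under the deposited-scale value, on which the median gene stood at 0.69. Without G007-LK replicate 1 the first of the deposited-scale values turned to 0.26, and without control replicate 1 the last turned to -0.48.

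The 4 Frizzled genes encode receptors with 7 membrane passes that bind Wnt proteins by an extracellular cysteine-rich domain. Fzd1 and Fzd7 belong to the same subfamily. Fzd1 had a signal of 48.4, 97.1 and 87.7 after G007-LK, 61.6, 163 and 109 with STP1002 at 10 mg/kg, 40.7, 56.7 and 44.6 at 5 mg/kg, and 13.2, 88.9 and 82.2 in control mice. Control replicate 1 was the lowest of all, and each treated group overlapped the controls. Its log2 fold change against control was 0.67 ± 0.73 (SE) with G007-LK, 1.14 ± 0.73 with STP1002 at 10 mg/kg and 0.02 ± 0.73 at 5 mg/kg, with limma adjusted p of 0.805, 0.464 and 0.998. Median-ratio rescaling moved the 10 mg/kg value to 0.46 ± 0.48 and the 5 mg/kg value to -0.10 ± 0.48. Without control replicate 1 the deposited-scale values became -0.20, 0.27 and -0.85.

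Fzd7, known as a Wnt receptor of Lgr5-positive stem cells in mouse intestine, had a signal of 145, 199 and 209 after G007-LK, 127, 289.7 and 172 with STP1002 at 10 mg/kg, 81.3, 140.0 and 153 at 5 mg/kg, and 101, 178 and 172 in control mice. All groups overlapped. The log2 fold change was 0.32 ± 0.47 (SE) with G007-LK, 0.34 ± 0.47 with STP1002 at 10 mg/kg and -0.28 ± 0.47 at 5 mg/kg, with limma adjusted p of 0.846, 0.632 and 0.998.

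After median-ratio rescaling both Fzd1 and Fzd7 were higher in 3 of 3 G007-LK mice than in any other mouse. The share of all genes that did so was not counted. The shares below are for single pairs of groups and for either direction, so they do not say how unusual this is. Rescaled Fzd7 was 262, 181 and 208 after G007-LK, 134, 139 and 121 with STP1002 at 10 mg/kg, 98.3, 139 and 147 at 5 mg/kg, and 179, 165 and 159 in control mice. Rescaled Fzd1 was 87.2, 88.1 and 87.1 after G007-LK, 64.8, 78.0 and 76.7 with STP1002 at 10 mg/kg, 49.2, 56.1 and 42.9 at 5 mg/kg, and 23.4, 82.2 and 75.8 in control mice. The gap between groups is narrow for both, since control replicate 1 of Fzd7 lies next to G007-LK replicate 2 and control replicate 2 of Fzd1 lies next to G007-LK replicate 3. On that scale the groups of 16.4% of all genes did not overlap between G007-LK and control, and neither gene passed the test: Fzd7 stood at 0.36 ± 0.32 (log2 fold change ± SE, adjusted p = 0.652 by limma) and Fzd1 at 0.72 ± 0.48 (adjusted p = 0.516 by limma). Fzd7 was then also lower in all 3 mice at 10 mg/kg and in all 3 at 5 mg/kg of STP1002 than in any control mouse, where 11.0% and 5.13% of all genes did not overlap, and against these doses 22.6% and 21.0% of all genes did not overlap for G007-LK. With STP1002 the rescaled Fzd7 values were -0.35 ± 0.32 at 10 mg/kg (adjusted p = 0.81 by limma) and -0.41 ± 0.32 at 5 mg/kg (adjusted p = 1 by limma).

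Beside this, the 6 measured fibroblast genes of 20 listed (Col6a3, Dcn, Pdgfra, Pdgfrb, Fbn1 and Fbln2) were above background in all libraries, with none at 0. Their summed deposited signal was 1789 to 2916 after G007-LK, 847 to 1433 with STP1002 at 10 mg/kg, 649 to 964 at 5 mg/kg and 706 to 1119.9 in control mice. With G007-LK against control 5 of the 6 had a log2 fold change above 0, Pdgfrb being at -0.01, and limma called 0. The median of the 6 was 1.27 on the deposited scale and 1.31 after rescaling. The part of stromal RNA in the Frizzled signals was not tested.

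Fzd4 also serves as the receptor of Norrin, a ligand outside the Wnt family that is needed for retinal vessels. Its signal was 31.4, 107 and 79.2 after G007-LK, 103, 226 and 109 with STP1002 at 10 mg/kg, 37.0, 60.01 and 96.7 at 5 mg/kg, and 92.1, 94.3 and 97.9 in control mice. All 3 mice at 10 mg/kg lay above all 3 control mice. In this comparison the groups of 12.2% of all genes did not overlap, 9.36% with STP1002 higher, and the spread among the controls (coefficient of variation 3.1%) was smaller than their counting error alone (15.9%). The log2 fold change was -0.55 ± 0.60 (SE) with G007-LK, 0.52 ± 0.60 with STP1002 at 10 mg/kg and -0.65 ± 0.60 at 5 mg/kg, with limma adjusted p of 0.807, 0.579 and 0.998. After rescaling the 10 mg/kg value turned to -0.17. The 8 measured endothelial genes of 18 listed, of which 6 to 8 lay above background in a library, summed to 506 to 690.1 after G007-LK, 781 to 1635 with STP1002 at 10 mg/kg, 401 to 696 at 5 mg/kg and 435 to 908 in control mice, and their part in the Fzd4 values was not tested.

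Fzd8 is a Frizzled of another subfamily. Its signal was 42.6, 245 and 225 after G007-LK, 75.0, 284 and 172 with STP1002 at 10 mg/kg, 57.3, 102 and 138 at 5 mg/kg, and 41.4, 156 and 133 in control mice. As for Wnt5a, both of the deepest libraries lay below the other 10 libraries, a position shared by 36.2% of all genes. The log2 fold change was 0.48 ± 0.73 (SE) with G007-LK, 0.69 ± 0.73 with STP1002 at 10 mg/kg and -0.04 ± 0.73 at 5 mg/kg, with limma adjusted p of 0.851, 0.548 and 0.998. Rescaling moved the 10 mg/kg value to 0, and without control replicate 1 the G007-LK value was -0.11.

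**Figure D1:**
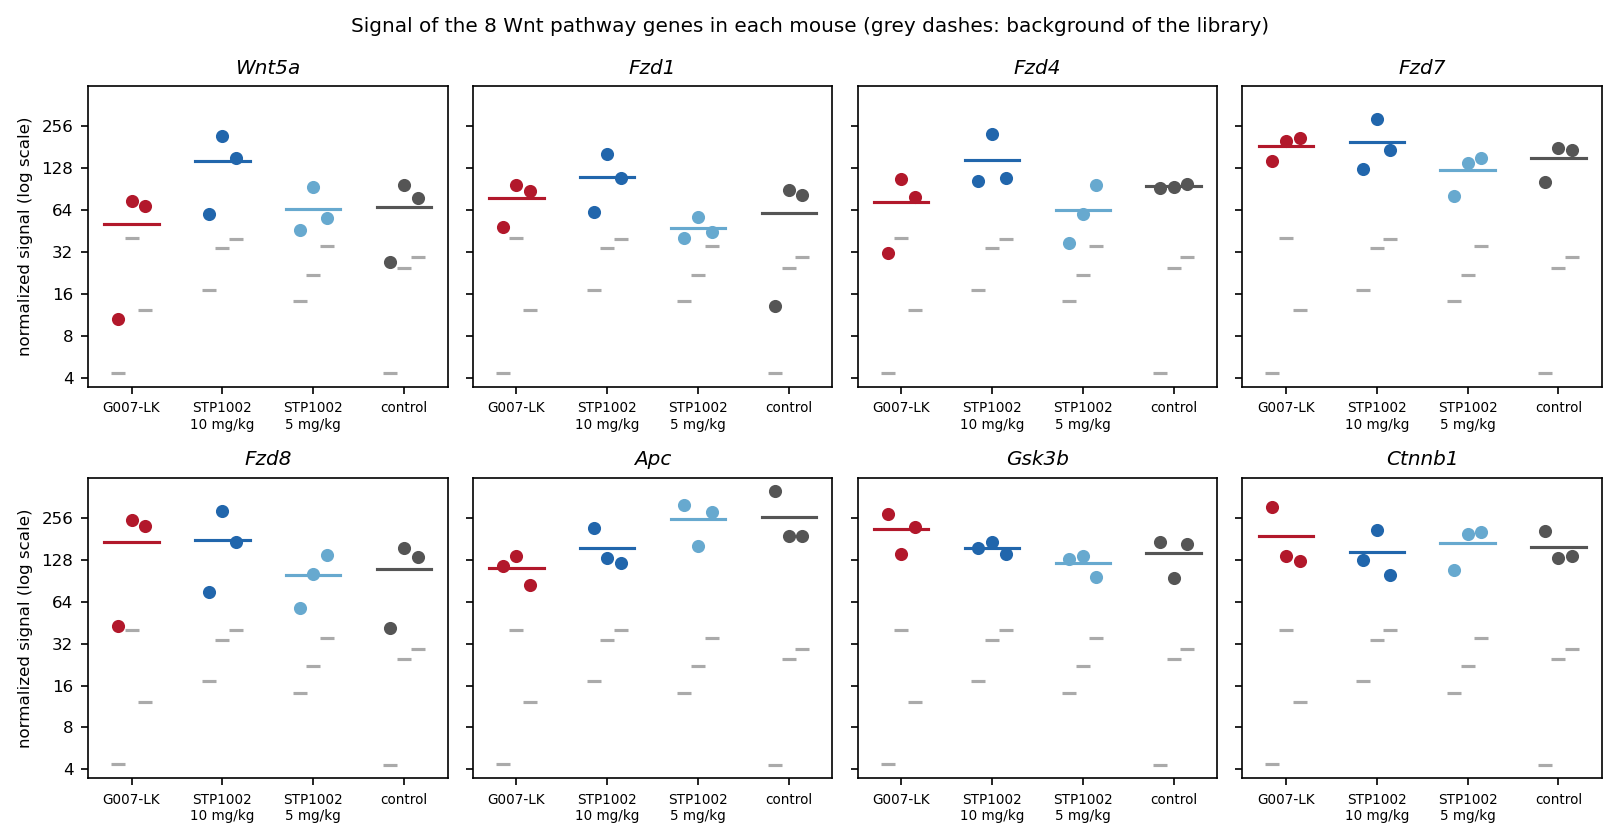
Normalized signal (log scale) of each of the 8 genes in every mouse, by group from G007-LK to control, with the group mean as a line and the background of each library as a grey dash. The 12 points of each gene lie above their own background, the 3 Apc values after G007-LK (84.3 to 135) lie below the 3 control values (188 to 397), and the groups overlap for the other 7 genes in that comparison.

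Apc encodes the large scaffold of the destruction complex, the tumour suppressor lost in most colorectal cancers. Its transcript was the one of the 8 whose groups did not overlap between G007-LK and control on the deposited scale. The signal was 115, 135 and 84.3 after G007-LK, 214, 132 and 122 with STP1002 at 10 mg/kg, 314, 160.0 and 279 at 5 mg/kg, and 397, 189 and 188 in control mice. All 3 G007-LK values lay below all 3 control values, and 2 of 3 values at 10 mg/kg did so. Between G007-LK and control the groups of 18.1% of all genes did not overlap, 7.95% with G007-LK lower.

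The mean of Apc was 112 ± 25.8 after G007-LK, 156 ± 50.7 and 251 ± 80.8 with STP1002 at 10 and 5 mg/kg, and 258 ± 120.4 in control mice (SD, n = 3 each). Against control, the log2 fold change was -1.13 ± 0.46 (SE) with G007-LK, with a 95% interval of -2.11 to -0.15. The unadjusted p by limma was 0.0264. Over all genes Apc did not pass (limma adjusted p = 0.26). Blocking on the replicate number did not change that (limma adjusted p = 0.109). With STP1002 at 10 mg/kg it was -0.67 ± 0.46 and at 5 mg/kg 0.00 ± 0.46, at limma adjusted p of 0.464 and 0.998. The difference between G007-LK and STP1002 at 10 mg/kg was -0.46 ± 0.46 (limma adjusted p = 0.494) and that from 5 mg/kg -1.13 ± 0.46 (limma adjusted p = 0.285), between groups whose dose, route and schedule differ.

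Library scale bears on Apc as well. After median-ratio rescaling Apc was 208, 123 and 83.7 after G007-LK, against 703, 175 and 173 in control mice. G007-LK replicate 1 then lay inside the control range, so that the groups overlapped, while the log2 fold change was -1.10 ± 0.62 (SE, adjusted p = 0.437 by limma). For STP1002 at 10 mg/kg the rescaled value was -1.36 ± 0.62, with an unadjusted limma p of 0.0471 and a limma adjusted p of 0.791. Some epithelial markers moved beside Apc: 3 of the 6 measured (Sfn, Spint2 and Erbb3) were called lower with G007-LK and 0 of 6 were called higher. Of all genes 1.15% were called lower and 2.31% higher in this comparison. Epcam, Cdh1 and Spint1 had -0.56, -0.86 and -1.20 and were not called (limma adjusted p of 0.78, 0.592 and 0.479). The summed signals given above did not overlap between G007-LK and control. The part of epithelial RNA in the Apc values was not tested.

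Gsk3b encodes the kinase that phosphorylates beta-catenin for degradation, and it has many other substrates. Its signal was 273, 141 and 221 after G007-LK, 154, 173 and 139 with STP1002 at 10 mg/kg, 129, 137 and 96.7 at 5 mg/kg, and 172, 94.3 and 164 in control mice. On the deposited scale it varied least of the 8 over the 12 libraries, with the highest signal 2.89 times the lowest, against 20.67 times for Wnt5a. After rescaling that ratio was 5.96 for Gsk3b, 5.6 for Wnt5a and smallest for Fzd7, at 2.66. The log2 fold change was 0.55 ± 0.44 (SE) with G007-LK, 0.16 ± 0.44 with STP1002 at 10 mg/kg and -0.21 ± 0.44 at 5 mg/kg, with limma adjusted p of 0.718, 0.819 and 0.998. The value at 10 mg/kg turned to -0.53 after median-ratio rescaling and to -0.44 after quantile normalization. All 3 G007-LK mice lay above all 3 mice given 5 mg/kg of STP1002, where 20.0% of all genes did not overlap (log2 difference 0.76 ± 0.44, limma adjusted p = 0.492). After rescaling these groups overlapped.

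Ctnnb1 encodes beta-catenin, which acts both in the nucleus and in cell junctions with cadherins. Its signal was 306, 135 and 126 after G007-LK, 127, 209 and 98.9 with STP1002 at 10 mg/kg, 107, 197 and 201 at 5 mg/kg, and 206, 132 and 137 in control mice. The groups overlapped in all 6 pairs. On the deposited scale the 95% interval of the log2 fold change ran from -0.88 to 1.2 for G007-LK. For STP1002 it ran from -1.21 to 0.87 at 10 mg/kg and from -0.98 to 1.10 at 5 mg/kg. Changes of up to about that size are within the error on that scale. Intervals after rescaling are not given, and the SE was larger there. At 10 mg/kg the deposited-scale value of -0.17 ± 0.49 (SE) became -0.86 ± 0.59 after median-ratio rescaling (adjusted p = 0.81 by limma) and -0.84 after quantile normalization (adjusted p = 0.802 by limma).

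The highest Ctnnb1 signal came from the deepest library. G007-LK replicate 1 held 1012 Ctnnb1 counts, and replicates 2 and 3 held 53 and 148. Without that replicate the log2 fold change of G007-LK against control was -0.25, against 0.16 ± 0.49 (SE) with it (limma adjusted p = 0.946).

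**Figure D2:**
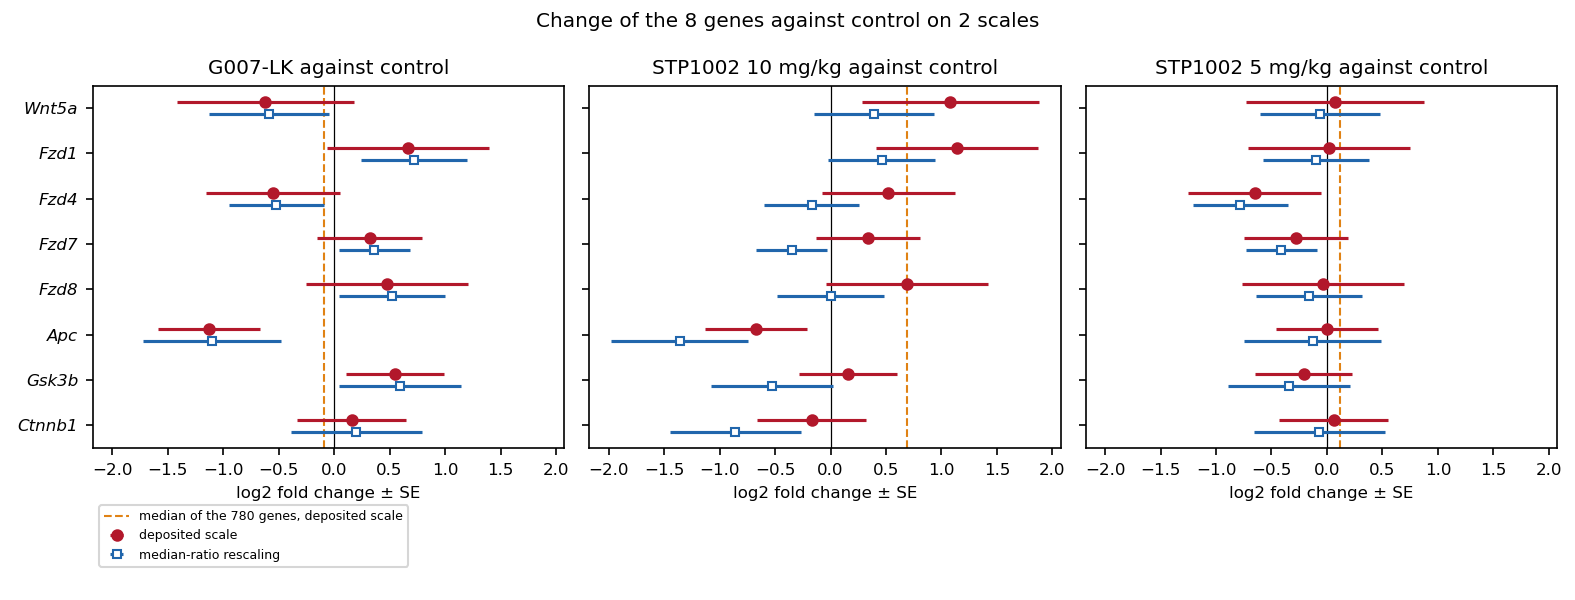
Log2 fold change ± SE of each gene against control, for G007-LK, STP1002 at 10 mg/kg and STP1002 at 5 mg/kg, on the deposited scale (filled) and after median-ratio rescaling (open), with the median of all 780 genes as a dashed line. With STP1002 at 10 mg/kg that median is 0.69, and Fzd4, Fzd7, Apc, Gsk3b and Ctnnb1 lie to its left on the deposited scale.

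Limma called 0 of the 8 genes at an adjusted p under 0.05 in any of the 3 comparisons with control, which share the same 3 control mice. Over the whole panel it called 3.46% of genes for G007-LK (27 of 780), and 0% for STP1002 at either dose. At an unadjusted p under 0.05 the panel held 13.2%, 4.62% and 2.31% of genes for G007-LK and for STP1002 at 10 and 5 mg/kg, and the 8 genes held 1 (Apc), 0 and 0. Same-numbered mice of STP1002 at 10 mg/kg and control deviated together, and with the number as a block Wnt5a and Fzd1 had an unadjusted p under 0.05 there (0.0413 and 0.0374 by limma), with 0 of the 8 called (adjusted p = 0.152 by limma for both). The 4.62% is from the fit without a block. The share of the panel under 0.05 with the block was not counted, so these 2 genes cannot be set against it. Same-numbered mice of G007-LK and control deviated together, and with the number as a block 63 genes of the panel and 0 of the 8 were called. A moderated F test for any difference among the 4 groups called 2.69% of the panel (12.2% at an unadjusted p under 0.05) and 0 of the 8, with Apc having the smallest p of them (0.0697, limma adjusted p = 0.461).

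The median log2 fold change of the 8 genes was 0.24 with G007-LK, 0.43 with STP1002 at 10 mg/kg and -0.02 at 5 mg/kg. Over all genes it was -0.09, 0.69 and 0.12, and after median-ratio rescaling -0.05, 0.01 and -0.01. At 10 mg/kg 6 of the 8 values were above 0 on the deposited scale, where 77.7% of all genes were, and 2 of them (Wnt5a and Fzd1) stayed above 0 after rescaling. Groups did not overlap for 1 of the 8 genes with G007-LK (Apc), where 18.1% of all genes did not, for 1 with STP1002 at 10 mg/kg (Fzd4), where 12.2% did not, and for 0 at 5 mg/kg, where 4.74% did not. When the groups are put in order of their means, 23 of 24 neighbouring pairs overlap, the exception being Fzd4 between STP1002 at 10 mg/kg and control, beside 94.2% of such pairs over all genes.

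Between the 2 doses of STP1002, 10 against 5 mg/kg, limma again called 0 of the 8 genes and 0% of the panel. Fzd1, Fzd4 and Gsk3b were higher in 3 of 3 mice at 10 mg/kg than in any mouse at 5 mg/kg. That is 3 of 8 genes, where 10.6% of all genes did not overlap between the doses (8.72% with 10 mg/kg higher), and the median gene was itself 0.56 higher on the log2 scale at 10 mg/kg. The log2 differences were 1.12 ± 0.73 (SE) for Fzd1, 1.17 ± 0.60 for Fzd4 and 0.37 ± 0.44 for Gsk3b, each at a limma adjusted p of 0.654. After rescaling Fzd1 alone of the 8 did not overlap, and 11.0% of all genes did not.

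G007-LK and STP1002 at 10 mg/kg differed in 3.08% of the panel and in 0 of the 8 genes by limma, and the groups overlapped for all 8 where 22.2% of all genes did not overlap. Wnt5a had a log2 difference of -1.69 ± 0.80 (SE), the median gene being at -0.74. It was not called without a block (limma adjusted p = 0.2). Same-numbered mice of these groups deviated together, and with the number as a block Wnt5a was called (limma adjusted p = 0.0155), as were 260 genes of the panel. Across numbers, replicates 2 and 3 of these groups deviated together too (r of 0.25 and 0.41), so the block need not stand for matched mice. Within each number the G007-LK mouse was lower than the STP1002 mouse: 10.6 against 60.3, 74.1 against 219 and 69.0 against 152. Only 25.5% of all genes had a log2 difference above 0 in this comparison. The share of genes lower within each number was not counted, so this order does not set Wnt5a apart. The 22 measured T and NK cell genes of 27 listed, of which 14 to 19 lay above background in a library of these groups, summed to 265 to 1488 after G007-LK and 1178 to 3939 with STP1002 at 10 mg/kg, and their part in the Wnt5a values was not tested.

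With the rescaling and the block together, an alternative chosen after the data were seen, the Wnt5a difference was -0.98 and was not called (limma adjusted p = 0.111). Gsk3b then had 1.12 (limma adjusted p = 0.0616) and Ctnnb1 1.06 (limma adjusted p = 0.146). Against STP1002 at 5 mg/kg, limma called 2.82% of the panel and 0 of the 8 genes for G007-LK. Groups did not overlap there for 2 of the 8, where 20.0% of all genes did not: Apc, with 84.3 to 135 after G007-LK and 160.04 to 314 at 5 mg/kg, and Gsk3b. After rescaling neither of these held, and Fzd1 and Fzd7 did not overlap.

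The library with the highest count differed among the 8 genes. For Gsk3b, Ctnnb1, Fzd7 and Fzd1 it was the deepest library, G007-LK replicate 1 (902, 1012, 480 and 160 counts), and for Apc and Fzd4 it was control replicate 1 (901 and 209). Fzd8 was highest in G007-LK replicate 3 (264) and Wnt5a in STP1002 10 mg/kg replicate 2 (114). The deepest library held 141 counts of Fzd8 and 35 of Wnt5a. Over the libraries Wnt5a counts ran from 15 to 114 and Ctnnb1 counts from 35 to 1012.

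**Figure D3:**
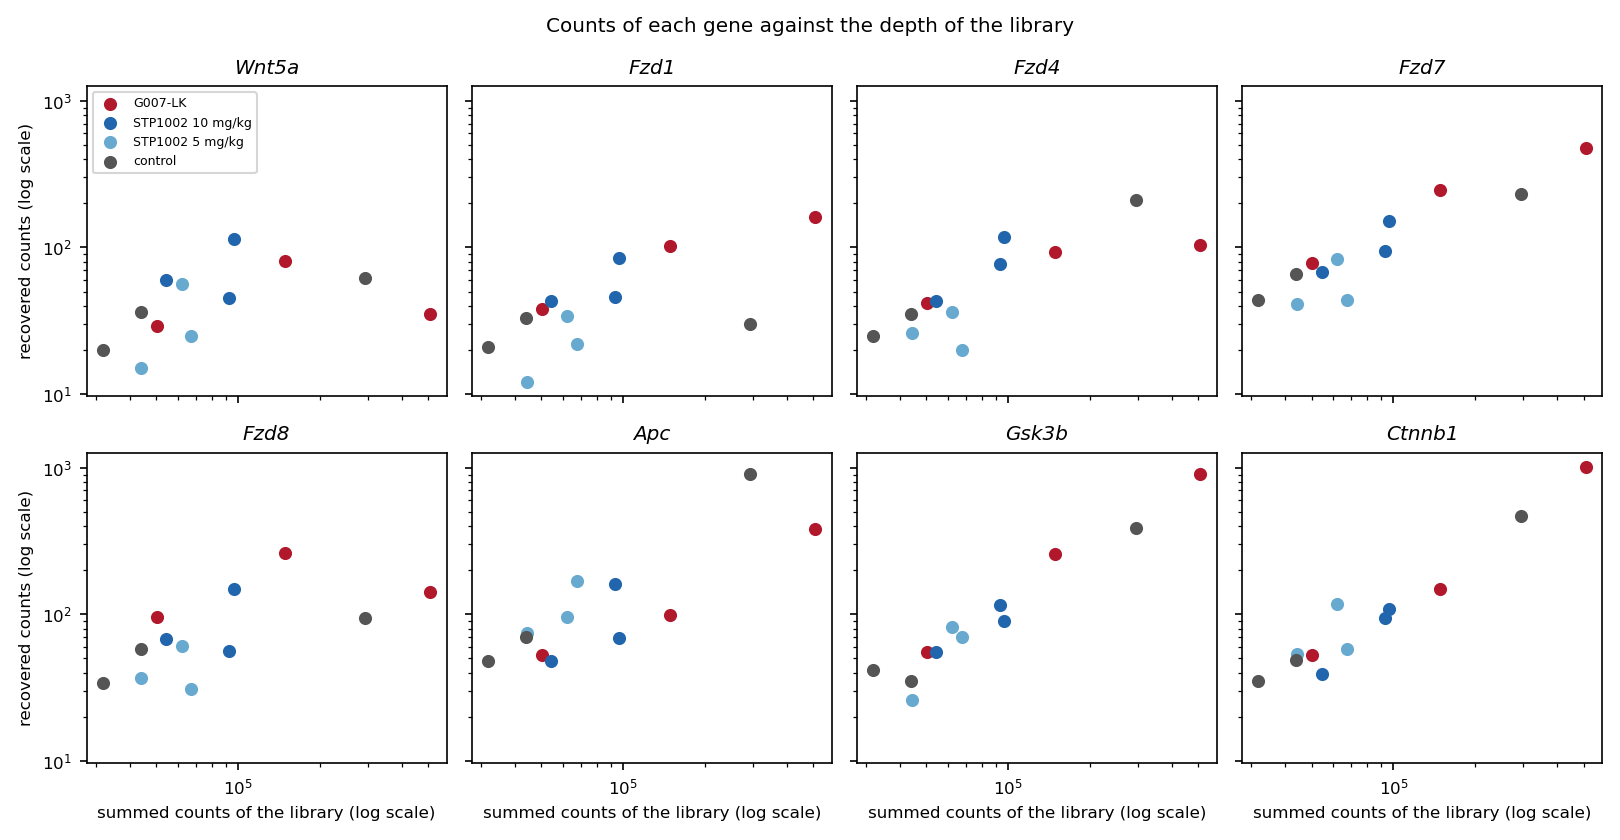
Recovered counts of each gene against the summed counts of the library, both on log scales, with a point for each mouse coloured by group. Counts of Gsk3b and Ctnnb1 climb with depth up to 902 and 1012, while those of Wnt5a are 62 and 35 in the 2 deepest libraries.

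Relative to the median gene of the same library, Gsk3b and Ctnnb1 were at 2.67 and 2.84 on the log2 scale in G007-LK replicate 1 and at 2.06 and 2.32 in control replicate 1. In the other 10 libraries they lay between -0.36 and 1.41. Apc reached 3.26 in control replicate 1, and Wnt5a was lowest in G007-LK replicate 1, at -1.89. On the deposited scale, replicate spread exceeded counting error in 29 of 32 combinations of a gene and a group. The counting error was 6.9% to 22.4% of the mean. This spread includes the shifts of the whole panel between libraries, and it was not computed after rescaling.

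**Figure D4:**
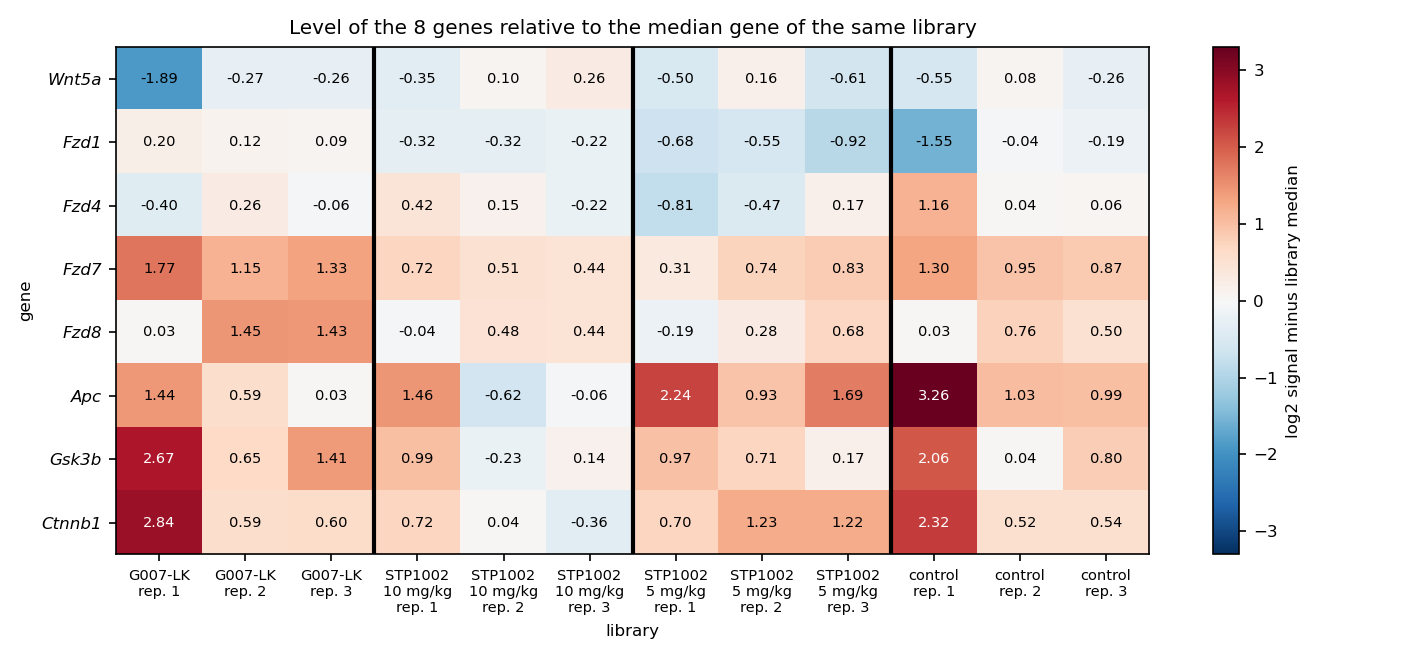
Log2 signal of each gene minus the median log2 signal of the same library, for the 12 libraries in 4 groups separated by lines. The darkest cells belong to G007-LK replicate 1 and control replicate 1, with Apc at 3.26 in the control library.

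On the deposited scale the signals of the ligand and the receptors were positively correlated over the 12 libraries. Pearson's r of log2 signal was between 0.47 and 0.86 for the 6 pairs of Frizzled genes and between 0.58 and 0.81 for Wnt5a with each of them. Against the r of each of these genes with all genes of the panel, the Frizzled pairs lay above 48.5% to 98.6% of genes and the Wnt5a pairs above 50.1% to 64.7% of genes, so that several stood near the typical gene. The r is given as a description, with no p, since the points share the scale of each library. After each library was centred on its median the range was -0.45 to 0.46 for the Frizzled pairs and -0.68 to 0.30 for Wnt5a. Among Apc, Gsk3b and Ctnnb1 r lay between -0.48 and 0.38 on the deposited scale and between 0.53 and 0.83 after centring.

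The centred values rest in part on the 2 deepest libraries. Without them, a comparison chosen after the data were seen, r over 10 libraries was 0.73 to 0.95 for the Frizzled pairs on the deposited scale and 0.35 to 0.85 after centring. For Wnt5a with the Frizzled genes it was 0.63 to 0.85 and, after centring, -0.16 to 0.37. Among Apc, Gsk3b and Ctnnb1 r was then between -0.66 and 0.07, and between 0.32 and 0.66 after centring. The centred r of Gsk3b and Ctnnb1 was 0.37 without these libraries, against 0.83 with them.

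**Figure D5:**
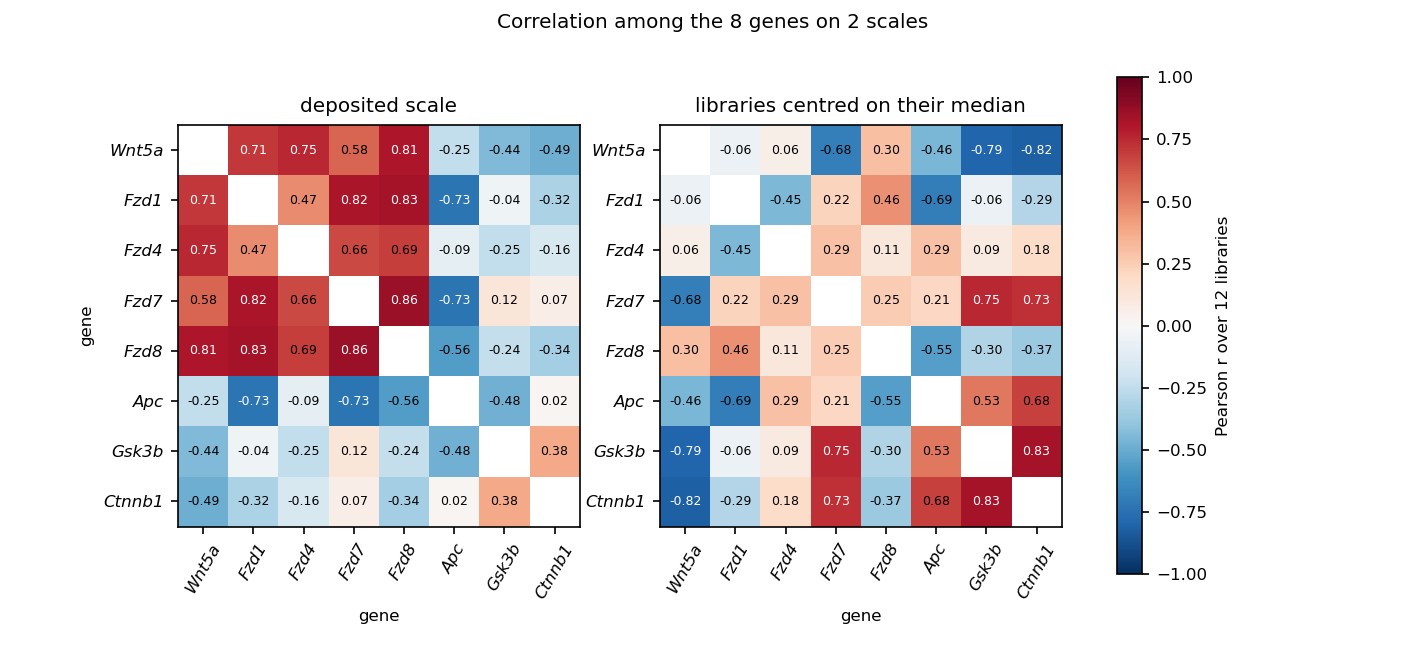
Pearson r over 12 libraries between the log2 signals of the 8 genes, on the deposited scale (left) and with each library centred on its median (right). The block of high values among Wnt5a and the Frizzled genes on the left is absent on the right, where Gsk3b and Ctnnb1 stand at 0.83.

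The genes of the panel most like each member were sought among 610 others above background in at least 10 libraries. For Wnt5a these were Tpsb2, a mast cell tryptase, Cd8b1, a chain of the CD8 co-receptor, and H2-Q10, each at r = 0.99, and at 0.97, 0.97 and 0.95 after centring. Fzd1 was followed by Adora2a (0.98), Bcl2a1a (0.97) and Fcgr4 (0.95), and Fzd7 by Lamtor1 (0.93), Fas (0.91) and Thbs2 (0.90). For Fzd8 the leading genes were Snai1 (0.96), Parva (0.96) and Entpd2 (0.94), and for Fzd4 they were Esr1 (0.91), Pik3r1 (0.91) and Hsd11b1 (0.90). After centring the leading values were lower: Fzd1 had Adora2a (0.92), Bcl2a1a (0.89) and Ccl4 (0.88), and Fzd7 had Lamtor1 (0.92), Txn1 (0.90) and Fstl1 (0.89). Fzd8 then had Parva (0.88), Snai1 (0.82) and Entpd2 (0.79), and Fzd4 had Pik3r1 (0.81), Hsd11b1 (0.78) and Hras (0.73). Without the 2 deepest libraries these centred Fzd4 values were 0.53, 0.58 and 0.50.

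Apc was most like Vegfb, Ndufa2 and Tfrc, each at 0.89, and after centring Ndufa2 (0.96), Huwe1 (0.96) and Tfrc (0.95). Gsk3b went with H2-D1 (0.87), Crebbp (0.85) and Sdc1 (0.85), and after centring with Mapk8 (0.97), Crebbp (0.97) and H2-D1 (0.96). Ctnnb1 had weaker partners, Sqstm1 (0.73), B4galt1 (0.68) and Lamc1 (0.65), while after centring Lamc1 reached 0.92, Psmc4 0.91 and Glud1 0.91. Each r is over 12 libraries and has no p. Without the 2 deepest libraries the 24 deposited-scale values ran from 0.19, for Ctnnb1 with Lamc1, to 0.99, for Wnt5a with Tpsb2, with a median of 0.88. The centred values without these libraries were 0.70, 0.77 and 0.60 for Ctnnb1 with Lamc1, Psmc4 and Glud1. For Apc they were 0.94, 0.95 and 0.92, and for Gsk3b 0.89 with each of its genes.

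Beside the 8 genes, 18 others of the Wnt pathway and of beta-catenin's junction partners were measured: 5 nuclear factors, 7 genes of signalling without beta-catenin, 5 junction genes and Smo, the Frizzled-class receptor of Hedgehog signalling. Limma called 0 of the 18 in either direction against control with G007-LK or with STP1002 at 10 or 5 mg/kg. Their median log2 fold change was -0.26, 0.39 and 0.05, beside -0.09, 0.69 and 0.12 for all genes. After rescaling the median of the 18 was -0.22, -0.30 and -0.08. With G007-LK 6 of 18 were above 0 on the deposited scale.

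For G007-LK the smallest p belonged to Ctnnd1, p120-catenin, which binds cadherins at the membrane. It averaged 187 after G007-LK and 387 in control mice, which is -0.97 ± 0.41 on the log2 scale (SE, adjusted p = 0.294 by limma). Prkca, a calcium-dependent protein kinase, had -1.19 ± 0.61 (limma adjusted p = 0.439) and Cdh1, E-cadherin, -0.86 ± 0.55 (limma adjusted p = 0.592). All 5 junction genes, Cdh1, Cdh5, Ctnna1, Ctnnd1 and Jup, had values below 0 for G007-LK, with a median of -0.62 and with 0 of 5 called. Of all genes 45.1% were above 0 there. With STP1002 0 of the 5 were above 0 at 5 mg/kg (median -0.29) and 4 at 10 mg/kg (median 0.09). After rescaling the medians were -0.59 for G007-LK, -0.61 at 10 mg/kg and -0.42 at 5 mg/kg, so the shift was not particular to G007-LK.

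For STP1002 at 10 mg/kg the smallest p belonged to Chd8, a chromatin remodeller that binds beta-catenin, with 258 in treated and 126 in control mice on average (log2 fold change 1.04 ± 0.45, SE; limma adjusted p = 0.464). Rescaling reduced it to 0.35. Map3k7, the kinase TAK1, had 1.16 ± 0.62 at 10 mg/kg and 1.03 ± 0.62 at 5 mg/kg, and Prkcb had 1.30 ± 0.70 and 0.95 ± 0.70. Limma adjusted p was 0.464 at 10 mg/kg and 0.998 at 5 mg/kg for both. Rescaling gave 0.47 and 0.91 for Map3k7 and 0.62 and 0.83 for Prkcb. Ctnnd1 had -0.39 ± 0.41 at 5 mg/kg (limma adjusted p = 0.998).

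Of 10 measured genes listed as Wnt targets, 2 were called with G007-LK against control, where 3.46% of all genes were, and 0 with STP1002 at either dose. The cyclin Ccnd1 fell, with 15.4, 58.8 and 55.4 after G007-LK and 1699, 428 and 603 in control mice (limma adjusted p = 0.00138). The hyaluronan receptor Cd44 rose, with 537, 69.0 and 60.5 after G007-LK and 23.8, 5.39 and 7.83 in control mice (limma adjusted p = 0.0397). Cd44 lay above background in 3 of 3 G007-LK mice and in 1 of 3 control mice, so the control level is at or near background. The list is of mixed direction and its median was -0.42. The Ctnnb1 transcript, measured in the same libraries, did not pass the test. Myeloid cells also express Cd44. Among 15 measured myeloid markers of 25 listed, 8 were called higher with G007-LK and 0 lower, where 2.31% of all genes were called higher. Of these markers 8 to 15 lay above background in a library, their summed signal being 5745 to 11206 after G007-LK and 923 to 1261 in control mice. The part of myeloid cells in the Cd44 value was not tested.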

How the data were processed

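Per the labels' protocols, ileum RNA of 12 mice was measured with nCounter probes for 760 tumour genes and 20 housekeeping genes. The deposited values are a linear normalized signal, and 14 control probes were left as counts. Software, background rule and reference genes are not given in the sources used here. Within a library the gene values are whole counts times a factor, found from the values: at least 98.7% of genes were whole within 0.0051, the rest lying mostly at a floor of 1. Counts were recovered on that basis for depth and counting error only. Background was the mean plus 2 SD of the 8 negative control probes, 4.33 to 40.4 on the deposited scale.

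Limma 3.58.1 (R 4.3.3) was fitted to log2(signal + 1) of all 780 genes, unfiltered, with a cell-means design over the 12 libraries, eBayes with a mean-variance trend and two-sided tests. A fold change on this scale understates changes of low genes. Calls needed a Benjamini-Hochberg adjusted p under 0.05 over all 780 genes within each comparison. Median-ratio rescaling divided each library by the median ratio of its genes to their geometric means. The fit was run on simulated data with the same spread for every gene and no shift or depth difference between libraries. That run therefore does not cover the library differences seen here. Replicates are separate mice, and p-values measure the spread between them. Symbols matched RefSeq for all 8 genes.

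The members and lists were chosen with earlier results of these data known. Named beside the members were called genes of the Wnt lists, or else the 3 with the smallest p, called target genes, and the 3 genes most like each member. Same-numbered mice deviated together (r over 0.1 in all 3 pairs) for G007-LK with control, STP1002 at 10 mg/kg with control and G007-LK with STP1002 at 10 mg/kg, with r from 0.14 to 0.78. In these comparisons replicates 2 and 3 also deviated together across numbers, with r from 0.25 to 0.57. Over all groups 11 of 36 differently numbered pairs had r over 0.1, against 15 of 18 same-numbered pairs. The labels do not say what the numbers stand for. Alternatives were rescaling, quantile normalization, a pseudocount of 20, a background floor, a filter, the replicate block, fits of 2 groups and fits without libraries.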

Additional observations from a re-analysis of the deposited data

How the results depend on the processing

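Genes called over the panel moved by more than 1.5 times under some alternatives. For G007-LK against control the count was 27, and it was 14 with median-ratio rescaling, 7 with a common background floor, 63 with the replicate number as a block and 15 in a fit of the 2 groups alone. For STP1002 10 mg/kg against control the count was 0, and it was 5 without the 2 deepest libraries and 2 in a fit of the 2 groups alone. For STP1002 5 mg/kg against control the count was 0, and it was 3 without the 2 deepest libraries. For G007-LK against STP1002 10 mg/kg the count was 24, and it was 2 with a common background floor, 260 with the replicate number as a block, 38 without the 2 deepest libraries and 108 with both rescaling and block. For G007-LK against STP1002 5 mg/kg the count was 22, and it was 6 with median-ratio rescaling, 10 with a common background floor, 61 with the replicate number as a block, 34 without the 2 deepest libraries and 1 in a fit of the 2 groups alone. For any difference among the 4 groups the count was 21, and it was 11 with median-ratio rescaling, 1 with a common background floor, 110 with the replicate number as a block and 39 without the 2 deepest libraries. Omission of a single library gave 16 to 47 for G007-LK against control, 3 to 53 for G007-LK against STP1002 10 mg/kg, 7 to 33 for G007-LK against STP1002 5 mg/kg and 9 to 29 for any difference among the 4 groups. The first count was 47 without G007-LK replicate 2 and 16 without G007-LK replicate 1, control replicate 2 or control replicate 3. The second was 53 on omission of G007-LK replicate 2, 9 on omission of replicate 1 of that group, and 5, 10 and 3 without STP1002 10 mg/kg replicates 1, 2 and 3. The third was 7 without G007-LK replicate 1 or STP1002 5 mg/kg replicate 1. The last was 9 to 13 without G007-LK replicate 1, STP1002 10 mg/kg replicates 1, 2 or 3, STP1002 5 mg/kg replicate 1, or control replicates 2 or 3. The cause of these shifts was not tested. Signs of member values turned in 76 of 680 values under alternatives, all of them uncalled in the fit reported (log2 fold changes follow). Quantile normalization gave, for G007-LK against control Ctnnb1 -0.07, for STP1002 10 mg/kg against control Fzd4 -0.16, Fzd7 -0.39, Fzd8 -0.19 and Gsk3b -0.44, for STP1002 5 mg/kg against control Wnt5a -0.16, Fzd1 -0.13 and Apc 0.02, for STP1002 10 against 5 mg/kg Gsk3b -0.31, for G007-LK against STP1002 10 mg/kg Fzd1 0.46, Fzd7 0.43, Fzd8 0.56 and Apc 0.24, for G007-LK against STP1002 5 mg/kg Ctnnb1 -0.26. Omitting the 2 deepest libraries gave, for G007-LK against control Ctnnb1 -0.04, for STP1002 10 mg/kg against control Ctnnb1 0.04, for STP1002 5 mg/kg against control Wnt5a -0.48, Fzd1 -0.85 and Apc 0.36, for G007-LK against STP1002 10 mg/kg Fzd7 0.14, Fzd8 0.60 and Ctnnb1 -0.08, for G007-LK against STP1002 5 mg/kg Wnt5a 0.20 and Ctnnb1 -0.31. Median-ratio rescaling gave, for STP1002 10 mg/kg against control Fzd4 -0.17, Fzd7 -0.35, Fzd8 0 and Gsk3b -0.53, for STP1002 5 mg/kg against control Wnt5a -0.06, Fzd1 -0.10 and Ctnnb1 -0.07, for STP1002 10 against 5 mg/kg Gsk3b -0.19, for G007-LK against STP1002 10 mg/kg Fzd1 0.26, Fzd7 0.71, Fzd8 0.52 and Apc 0.27. A pseudocount of 20 gave, for STP1002 5 mg/kg against control Fzd1 -0.10. A common background floor gave, for STP1002 5 mg/kg against control Wnt5a -0.11 and Fzd1 -0.50. Median-ratio rescaling with the replicate block gave, for G007-LK against STP1002 10 mg/kg Fzd1 0.26, Fzd7 0.71, Fzd8 0.52 and Apc 0.27. Over the omissions of a single library, the values that turned sign ran, for G007-LK against control, Wnt5a -1.16 to 0.26, Ctnnb1 -0.25 to 0.39, Fzd1 -0.20 to 1.13 and Fzd8 -0.11 to 1.29, for STP1002 10 mg/kg against control, Ctnnb1 -0.46 to 0.07 and Gsk3b -0.12 to 0.31, for STP1002 5 mg/kg against control, Fzd7 -0.54 to 0, Fzd8 -0.63 to 0.32, Wnt5a -0.48 to 0.42, Fzd1 -0.85 to 0.48, Apc -0.19 to 0.36 and Ctnnb1 -0.09 to 0.36, for STP1002 10 against 5 mg/kg, Ctnnb1 -0.53 to 0.01, for G007-LK against STP1002 10 mg/kg, Fzd7 -0.29 to 0.30, Fzd8 -0.73 to 0.60 and Ctnnb1 -0.08 to 0.63, for G007-LK against STP1002 5 mg/kg, Wnt5a -1.15 to 0.20, Ctnnb1 -0.31 to 0.33 and Fzd4 -0.26 to 0.61. The remaining 603 kept direction and call, and 1 gained a call. With the replicate number as a block, Wnt5a was called between G007-LK and STP1002 10 mg/kg (adjusted p = 0.0155 by limma), which raised the members called to 1, and no other member call changed. In comparisons with STP1002 5 mg/kg 1 of 3 same-numbered pairs had a correlation of 0.01 to 0.03, so there the numbers give only a label. Rescaling together with the block was chosen after the data were seen. A planned count model was not run, since the deposited values mix rescaled counts with floored values and unscaled control probes. Library depth, 31901 to 508829 counts, limits the shallow libraries.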
